A study of Homo sapiens with 6 samples.

Results

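The minor fibrillar collagen genes COL5A1, COL5A3, COL11A1, COL11A2, COL2A1, COL24A1 and COL27A1 were examined for ZNF469 occupancy in LX-2 cells. A record, meaning 1 called peak of a deposited list, was taken when it overlapped the body of any of these 7 genes or the 20 kb to either side (GENCODE annotation, hg38). By this rule 21 of the 19108 records of full-length ZNF469 and 0 of the 54 records of dZF-ZNF469 belonged to the family. Of the 21 records, 16 lay in gene bodies and 5 in flanks.

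LX-2 is an immortalized human line of hepatic stellate cells, the cells that make most of the collagen of the fibrotic liver. The cells carried a piggyBac transposon with an inducible transgene for ZNF469, either full length (labelled clone3.4) or with its zinc finger region deleted (dZF, labelled clone3.1). All 6 libraries came from cells kept in medium with an ascorbic acid phosphate and given doxycycline at 1 ug/mL for 24 h, so no uninduced cells were compared here. Chromatin was profiled by CUT&RUN, in which an antibody, here against ZNF469, brings a nuclease to its target and the fragments cut free are sequenced. Each construct sat in its own line, and the labels do not say what the clone names stand for. The 3 libraries of a group were merged by the authors into 1 list of records that passed a reproducibility filter. Whether that filter compared the 3 libraries with one another is not stated in the sources used here. No value per library was available, and the construct and the line cannot be told apart.

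Fibrillar collagens are secreted as procollagens, trimmed at both ends by proteases and assembled into fibrils. Types I, II and III make up the bulk of fibrils, while types V and XI sit within them and limit their diameter. The name minor is used here for the 7 genes as a set, although type II is the major collagen of cartilage and COL5A2, a chain of type V, is counted with the other fibrillar genes. COL5A1 encodes the main chain of type V collagen and COL5A3 a rarer one. COL11A1 and COL11A2 encode chains of type XI collagen, and COL2A1 encodes the chain of type II, the collagen of cartilage. COL24A1 and COL27A1 encode the chains of types XXIV and XXVII, which have shorter or interrupted triple helices. Stellate cells are known for types I, III and V rather than for the cartilage types.

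AP-1, the dimer of FOS and JUN proteins, binds the letters TGACTCA, which read TGAGTCA on the other strand. The summit is the base of a record with the most fragments. Of the 21 records, 4 (19%) held an AP-1 match within 50 bp of the summit, against 19.3% of all full-length records. The hg38 plus-strand windows of 101 bases are given for 3 of these 4 records. The summit is base 51 of each window and the AP-1 letters are in capitals.
COL5A1 region 6, chr9:134814909-134815009: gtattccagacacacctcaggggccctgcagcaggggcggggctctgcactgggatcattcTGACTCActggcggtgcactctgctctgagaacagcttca
COL27A1 region 1, chr9:114177834-114177934: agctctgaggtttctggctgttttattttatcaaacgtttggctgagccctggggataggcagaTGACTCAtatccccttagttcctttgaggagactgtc
COL27A1 region 2, chr9:114225561-114225661: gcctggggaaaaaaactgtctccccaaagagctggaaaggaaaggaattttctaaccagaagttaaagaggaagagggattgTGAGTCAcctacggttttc

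In COL5A1 region 6 the match began at base 62 of the window, in COL27A1 region 1 at base 65 and in COL27A1 region 2 at base 83. The match lay to the same side of the summit, toward higher coordinates, in all 3. The windows of the highest records of each occupied gene are shown next. COL2A1 is given with its record in the gene and its record beyond the gene end. None of these 6 windows held an AP-1 match, and the capitals mark CATTCC, the TEAD motif GGAATG as read on the other strand, where it occurred.
COL5A1 region 4, chr9:134670124-134670224: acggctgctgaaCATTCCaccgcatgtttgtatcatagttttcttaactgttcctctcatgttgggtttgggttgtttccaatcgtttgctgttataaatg
COL27A1 region 5, chr9:114288333-114288433: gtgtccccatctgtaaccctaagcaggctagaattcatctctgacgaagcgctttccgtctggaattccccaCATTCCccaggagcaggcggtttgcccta
COL11A1 region 3, chr1:102897728-102897828: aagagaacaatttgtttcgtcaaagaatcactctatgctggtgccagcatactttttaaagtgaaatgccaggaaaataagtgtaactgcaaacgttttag
COL11A2 region 2, chr6:33161006-33161106: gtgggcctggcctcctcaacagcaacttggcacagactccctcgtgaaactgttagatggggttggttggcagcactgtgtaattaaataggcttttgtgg
COL2A1 region 1, chr12:48001171-48001271: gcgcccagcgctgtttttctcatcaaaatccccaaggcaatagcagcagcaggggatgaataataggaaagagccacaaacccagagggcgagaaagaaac
COL2A1 region 2, chr12:47963368-47963468: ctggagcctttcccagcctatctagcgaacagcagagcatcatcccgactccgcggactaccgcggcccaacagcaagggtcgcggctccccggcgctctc

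The 21 records were spread unevenly over the 7 genes. COL5A1, COL11A1 and COL27A1 each held 5 records in the gene body, COL2A1 held 1, and COL5A3, COL11A2 and COL24A1 held 0. With flanks included, 5 of the 7 genes had a record, against 52% of 20007 protein-coding genes. In the body alone the count was 4 of 7, against 33.7% of protein-coding genes. A body count of at least 5, reached by 3 of the 7 genes, was found in 2.21% of protein-coding genes.

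Long genes offer more room for records, so each gene was read beside genes of like length. COL5A1 (203 kb), COL11A1 (232 kb) and COL27A1 (157 kb) all had records in the body, which was true of 58% of genes of 100 to 300 kb. A count of at least 5 was reached by 7.96% of genes of that length. COL24A1 was the longest member at 428 kb and had none, while 71.8% of genes above 300 kb had at least 1. COL5A3, at 50.9 kb, also had none, against 40.7% with a record among genes of 40 to 100 kb. Of the short members, COL2A1 (31.6 kb) had 1 and COL11A2 (29.8 kb) had 0, and 22.8% of genes under 40 kb had a record.

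No record lay within 1 kb of the annotated start of any of the 7 genes, a position occupied in 17.6% of protein-coding genes. The summit nearest to a start was that of COL11A1, at 2.17 kb, followed by COL5A1 at 3.04 kb, COL2A1 at 3.33 kb, COL11A2 at 8.23 kb on the upstream side and COL27A1 at 22.3 kb. All 16 summits in gene bodies lay in introns of the canonical transcript. Of those 16 records, 4 reached into an exon, and 306 of the 7624 bases that the records covered were exonic. This was 4.01% of the covered bases, and exons made up 4.25% of the summed bodies of the 7 genes.

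**Figure D1:**
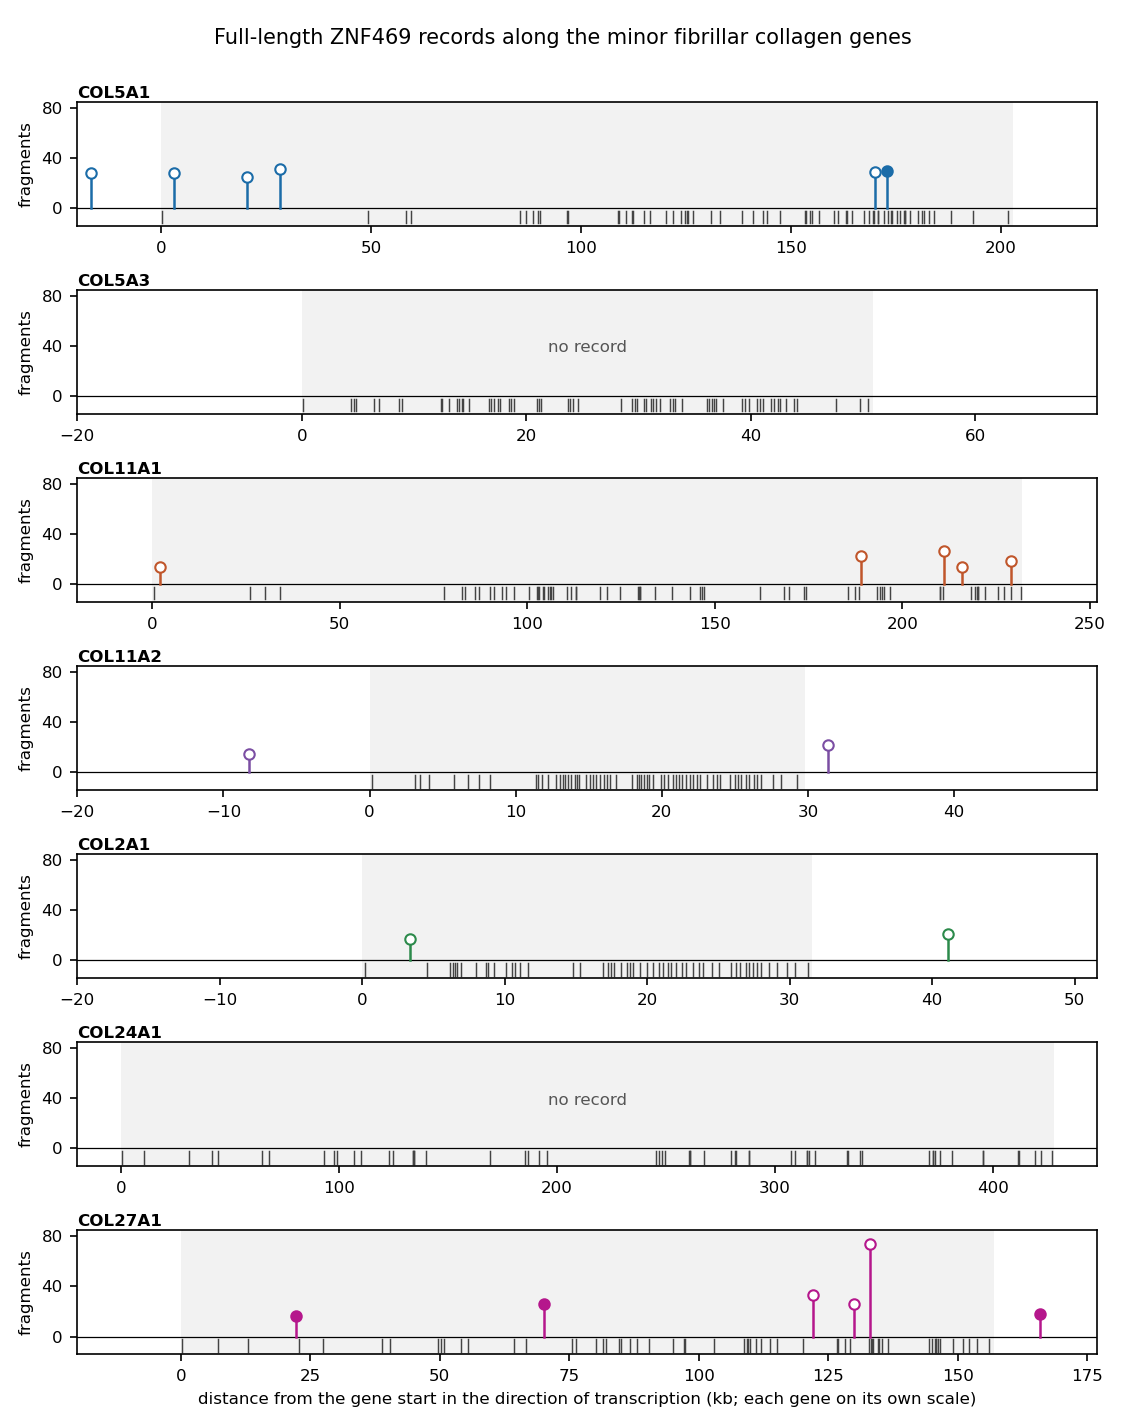
Each panel shows 1 gene, with the distance from its start in kb on the horizontal axis and the pileup of each full-length record in fragments on the vertical axis; dark ticks are exons of the canonical transcript, grey shading is the gene body, and filled circles have an AP-1 match within 50 bp of the summit. COL5A1, COL11A1 and COL27A1 each carry 5 records in the body, and COL5A3 and COL24A1 carry none.

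Pileup, the number of fragments over a summit, was recovered for every record from the deposited fold enrichment and −log10 p-value, together with the local background, the number of fragments the caller expected there. The 95% limits given with a pileup are exact Poisson limits and cover counting error only, not the difference between libraries. Over the 21 records the median pileup was 25 fragments (range, 14 to 74), against a median of 20 over all 19108 full-length records. The median background was 2.03 fragments (range, 1.01 to 4.32), against 1.82 over all records. The median fold enrichment, (pileup + 1) over (background + 1), was 7.41 (range, 5.31 to 14.1), against 7.36. A pileup of 27, the upper quartile of the list, was met or passed by 8 of the 21 records. By fold, 6 of the 21 were in the upper 25% of the list. The median fold of the family was thus close to that of the list, while its median pileup was above the list's.

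COL5A1 carried the most even set of records. COL5A1 region 1 (chr9:134624760-134625298) lay upstream, with its summit 16.8 kb before the gene start. Its pileup was 28 fragments (18.6 to 40.5) over a background of 2.08, a fold of 9.41. Intron 1, which spans 48615 bp, held the next 3 records. COL5A1 region 2 (chr9:134644752-134645039), 3.04 kb into the gene, had a pileup of 28 (18.6 to 40.5) over 3.08, and region 3 (chr9:134661819-134662767), 20.4 kb in, had 25 (16.2 to 36.9) over 2.11. Region 3 was the widest record of the family, at 949 bp. COL5A1 region 4 (chr9:134670066-134670360), 28.4 kb in, had the highest pileup of the gene, 31 (21.1 to 44) over 1.94, and a fold of 10.9. The window of this record, shown above, carried a TEAD match and no AP-1 match.

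The remaining records of COL5A1 lay near the other end of the gene, 142 kb further on. COL5A1 region 5 (chr9:134811749-134812243) lay in intron 46, 150 bp from the nearest exon, with a pileup of 29 (19.4 to 41.6) over 3.55. COL5A1 region 6 (chr9:134814893-134815214) had its summit in intron 50 and covered 12 bp of exon 50, an exon of 108 bp. Its pileup was 30 (20.2 to 42.8) over 3.53, a fold of 6.84, and it was the only COL5A1 record with an AP-1 match at the summit. The summits of regions 5 and 6 were 3.05 kb apart. Across the gene the pileups in the body ran from 25 to 31 fragments, and the limits of all of them overlapped.

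COL11A1, read from the minus strand, held records with lower pileups. COL11A1 region 1 (chr1:103106609-103107038), in intron 1 and 2.17 kb from the gene start, had 14 fragments (7.65 to 23.5) over a background of 1.27. The following 187 kb held no record. COL11A1 region 2 (chr1:102919657-102920085), in intron 49, had 23 (14.6 to 34.5) over 1.24, and with a fold of 10.7 stood out most from its surroundings within this gene. COL11A1 region 3 (chr1:102897393-102898127), in intron 57 and reaching 3 bp into exon 57, had the highest pileup of the gene, 27 (17.8 to 39.3) over 2.78. COL11A1 region 4 (chr1:102892078-102892576), in the same intron, had 14 (7.65 to 23.5) over 1.76 and the lowest −log10 p-value of the family, 9.14. COL11A1 region 5 (chr1:102879360-102880189) covered the whole of exon 66, which has 234 bp, and had 19 (11.4 to 29.7) over 2.03. All 5 sets of limits overlapped, and no AP-1 match lay within 50 bp of any summit of the gene. The nearest was 56 bp from the summit of region 3.

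COL27A1 held the highest record of the family. COL27A1 region 5 (chr9:114288120-114288620) covered all 57 bp of exon 42 and had its summit in intron 41. Its pileup was 74 fragments (58.1 to 92.9) over a background of 4.32, a fold of 14.1. It ranked 73 by pileup and 114 by fold among the 19108 records. Its limits did not overlap those of any other record of the family, while the limits of the other 20 records all overlapped one another. The record held no AP-1 match, and its summit window carried a TEAD match, shown above.

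The other COL27A1 records were lower. COL27A1 region 1 (chr9:114177810-114178086), in intron 3, had 16 fragments (9.15 to 26) over 1.8, and region 2 (chr9:114225427-114225824), in intron 14, had 26 (17 to 38.1) over 2.32. Both had an AP-1 match at the summit, 17 bp and 35 bp away. COL27A1 region 3 (chr9:114277394-114277958), in intron 37, had 33 (22.7 to 46.3) over 3.19, and region 4 (chr9:114285479-114285809), in intron 41, had 26 (17 to 38.1) over 4.09. Region 3 held 3 AP-1 matches, at 53, 82 and 99 bp from the summit, and region 4 held 2, at 62 and 98 bp, all outside the window of 50 bp. Regions 3, 4 and 5 lay within a short stretch, with 8.08 kb between the summits of regions 3 and 4 and 2.72 kb between those of regions 4 and 5. COL27A1 region 6 lay 9.46 kb beyond the gene end and 1.13 kb from the start of ORM1, which encodes an acute phase protein of the liver. It had 18 fragments (10.7 to 28.4) over 1.01, the lowest background of the family, and an AP-1 match 32 bp from its summit.

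COL2A1 and COL11A2 each had 2 records, and some of these lay at the starts of neighbouring genes. COL2A1 region 1 (chr12:48001063-48001342), the only record in the body of either gene, lay in intron 1 of COL2A1, 3.33 kb from the start, with 17 fragments (9.9 to 27.2) over 1.86. COL2A1 region 2 (chr12:47963238-47963797) lay 9.55 kb beyond the gene end, with its summit 0.151 kb from the start of TMEM106C, and had 21 (13 to 32.1) over 1.8. COL11A2 region 1 (chr6:33200442-33200936) lay 8.23 kb before the start of COL11A2 and 0.065 kb from that of RXRB, which encodes a retinoid X receptor. It overlapped both RXRB and SLC39A7, and had 15 (8.4 to 24.7) over 1.66. COL11A2 region 2 (chr6:33160735-33161312) lay 1.62 kb beyond the gene end, overlapping no annotated gene, and had 22 (13.8 to 33.3) over 1.54. The 2 records at neighbouring starts were the richest in CpG of the family, with 9.29 per 100 bp at TMEM106C and 7.27 at RXRB. Over all 21 records the median was 1.63 per 100 bp.

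COL5A3 and COL24A1 had no record in body or flanks. The nearest record to COL24A1 lay 20.6 kb beyond its end, 1 bp from the start of ZNHIT6, with a pileup of 16 and a fold of 6.32. That record fell just outside the limit of 20 kb, as did a record 20.6 kb upstream of COL11A1 with a pileup of 17 and a fold of 7.9. Just inside it was COL5A1 region 1, whose edge lay 16505 bp from the gene.

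**Figure D2:**
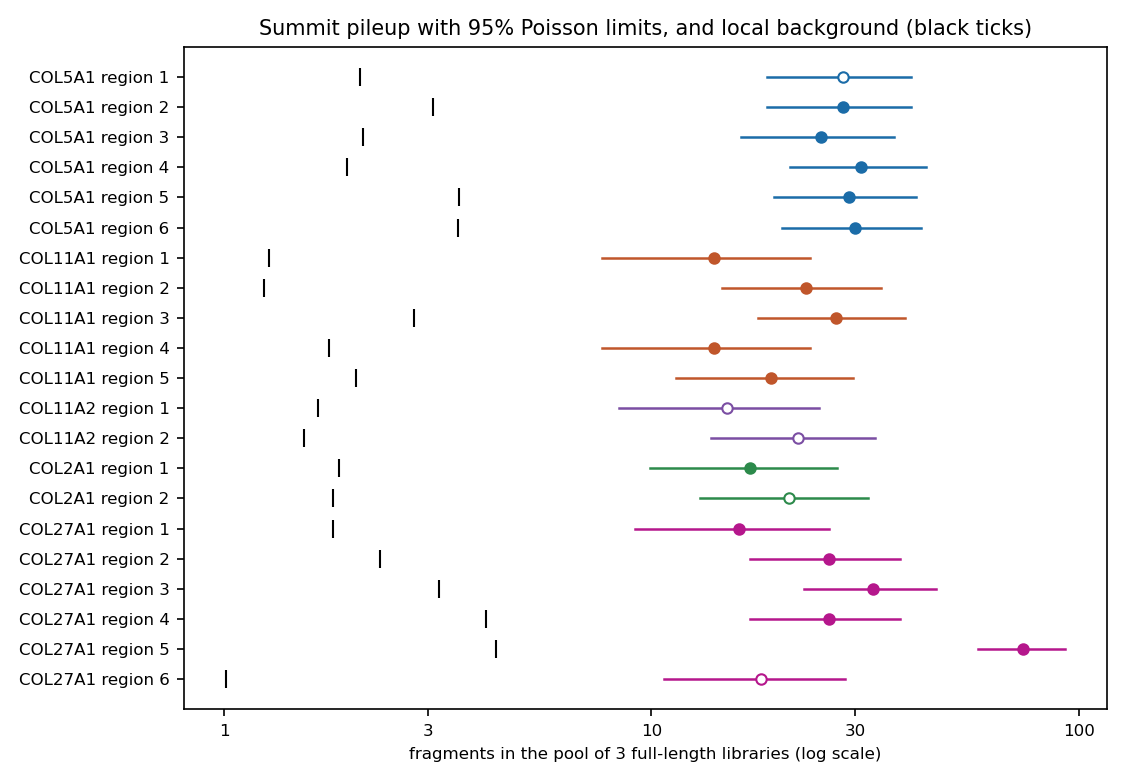
Circles give the summit pileup of each of the 21 records with 95% Poisson limits (lines) and black ticks the local background, in fragments of the pooled full-length libraries on a log scale; filled circles lie in gene bodies and open circles in flanks. COL27A1 region 5, with 74 fragments, is the only record whose limits do not overlap those of the others.

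The position of summits along the 3 genes with 5 records each was compared with that in other genes after the records had been seen. With each gene cut into 4 equal stretches from start to end, 5 of these 15 summits lay in the first stretch, 1 in the second, 0 in the third and 9 in the last. The last stretch held 2 of 5 in COL5A1, 4 of 5 in COL11A1 and 3 of 5 in COL27A1. Over all genes of 100 to 300 kb with a record, the last stretch held 21.8% of 3943 summits and the first 29.9%. Among the 85 genes of that length with exactly 5 records, members included, the last stretch held 17.9% of 413 summits. The 15 summits come from 3 genes and 1 pool, and the difference was not tested.

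By annotation class, assigned over all transcripts in the order used by ChIPseeker, 8 of the 21 records (38.1%, Wilson 95% interval 20.8 to 59.1) were promoter, meaning within 3 kb of an annotated transcript start, against 39.3% of all full-length records. Another 8 (38.1%) were intronic, against 35.8%, and 2 (9.52%, 2.65 to 28.9) were distal intergenic, against 21.6%. The family was taken only in or near genes, and its 16 body records could not be distal by construction. The list has no such limit, so its shares are not a like-for-like background for the distal, intron, exon and UTR classes. The exon class held 1 record (4.76%, 0.846 to 22.7), against 1.61%, and the 3' UTR class 2 (9.52%, 2.65 to 28.9), against 1.33%. Many of the promoter calls came from starts other than those of the canonical transcripts. In COL5A1 region 5, COL11A1 region 5 and COL2A1 region 1 it was the start of another transcript of the same gene, and in 3 flank records that of a neighbouring gene. With a promoter window of 1 kb the promoter share was 14.3%. The 3' UTR calls of COL11A1 region 3 and COL27A1 region 5 came from transcripts other than the canonical one, and at the summit itself both were intronic.

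The share of AP-1 matches in the family was close to that of the list. Of the 21 records, 4 (19%, Wilson 95% interval 7.67 to 40) had a match within 50 bp of the summit, against 19.3% of all full-length records. The 4 were 3 of the 6 records of COL27A1 and 1 of the 6 of COL5A1, and the 9 records of COL11A1, COL11A2 and COL2A1 had none. Within 100 bp the count was 9 of 21 (42.9%, 24.5 to 63.5), against 32.3%, and anywhere in the record it was 11 of 21 (52.4%, 32.4 to 71.7), against 44.1%. Both backgrounds lay within the intervals. Records with and without a match at the summit had median pileups of 22 (n = 4) and 25 (n = 17).

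**Figure D3:**
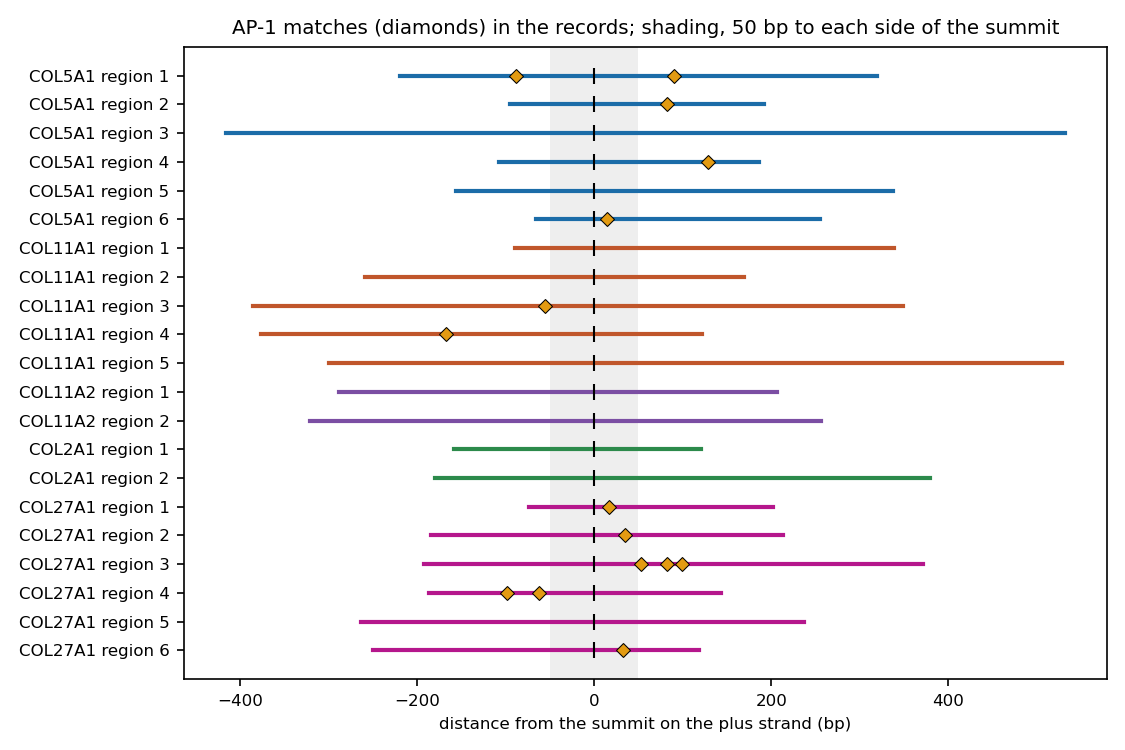
Lines show the extent of each of the 21 records around its summit in bp along the plus strand, diamonds the AP-1 matches on either strand, and shading the 50 bp to each side of the summit. The 4 records with a diamond in the shading are COL5A1 region 6 and COL27A1 regions 1, 2 and 6.

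Other motifs were searched on both strands in the same windows. TEAD (GGAATG), bound by the partners of YAP and TAZ, was found in 2 of the 21 records (9.52%), against 11.7% of all full-length records. RUNX (TGTGGT) was found in 0, against 9.45%, and the GC box (GGGCGG), the site of SP factors, in 3 (14.3%), against 9.82%. The GC box matches were in COL5A1 region 6, COL11A2 region 1 and COL27A1 region 4. These letter matches are descriptions of the windows, and at 21 records the intervals are wide. The GC box interval, for example, ran from 4.98% to 34.6%.

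The promoters of the genes themselves, taken as the 250 bases before to 50 bases after the start (RefSeq, GRCh38.p14), could be matched by symbol for 6 of the 7 genes, all but COL2A1. None of the 6 windows overlapped a record, against 11.6% of 35116 promoter windows. None held TGACTCA on either strand, against 4.95%. Their GC content ran from 59% in COL24A1 to 74% in COL5A1, against a median of 58.7% over all windows. The COL5A1 window held 36 CpG, against 12 to 18 in the other 5 and a median of 14. All 6 windows were thus at or above the median GC content, COL24A1 only just. With 6 windows and a share of 11.6% over all windows, the absence of records does not set these promoters apart.

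The other fibrillar collagen genes, COL1A1, COL1A2, COL3A1 and COL5A2, carried 43 records by the same rule. Their median pileup was 49 fragments (range, 16 to 277) and their median background 7.29 (range, 2 to 44), against 25 and 2.03 in the minor genes. Their median fold was 5.22, against 7.41 in the minor genes. As a set the other fibrillar genes were thus higher in median pileup and background and lower in median fold. COL1A2 differed from the set in background and fold. Its 3 records had pileups of 19, 31 and 41 over backgrounds of 2, 2.72 and 3.99, which lie within the range of the minor genes, and its body record had a fold of 8.42. Records covered 0.673% of the summed body length of the 7 minor genes (7624 bp of 1132 kb), 5.63% of that of the other 4 and 0.371% of that of all protein-coding genes. COL27A1 (1.32%), COL11A1 (1.26%), COL5A1 (1.16%) and COL2A1 (0.886%) were all below COL1A2 (1.45%), the least covered of the other 4. The cover of COL1A2 came from 1 record. In body records per 100 kb the 2 sets overlapped. COL1A2 had 2.75, below COL27A1 (3.19) and COL2A1 (3.17) and above COL5A1 (2.46) and COL11A1 (2.15). COL1A1 was covered over 19.1% of its body, COL3A1 over 8.66% and COL5A2 over 4.59%. With 1 pool, none of these differences has a replicate error and none was tested. The high backgrounds moved with the high pileups, and what part they had in them was not tested.

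**Figure D4:**
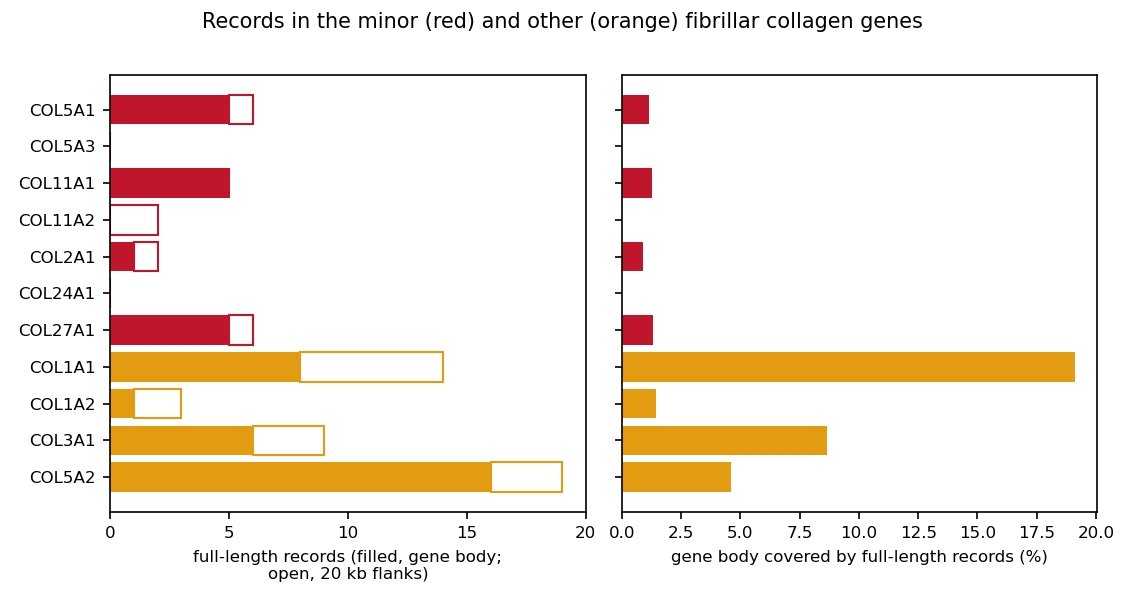
The left panel gives the number of full-length records in the body (filled) and in the 20 kb flanks (open) of each fibrillar collagen gene, and the right panel the percent of the body that they cover; COL3A1 and COL5A2 are neighbours and share some flank records. The 7 minor genes (red) lie between 0 and 1.32% and the other 4 (orange) between 1.45 and 19.1%, where the 1.45% of COL1A2 comes from 1 record.

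**Figure D5:**
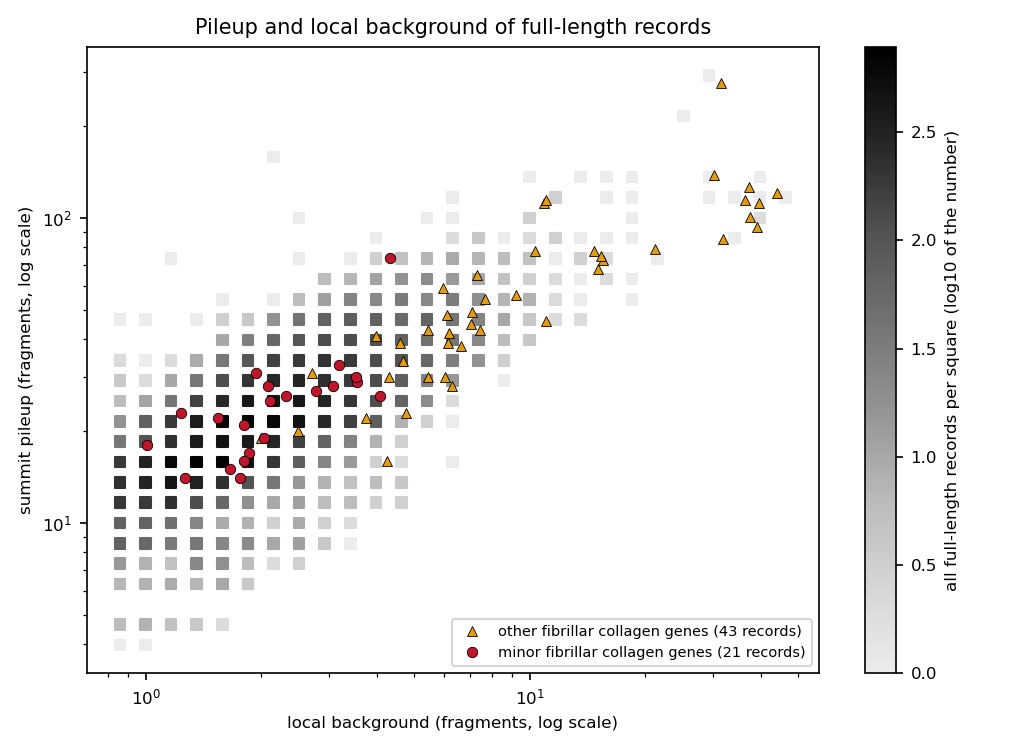
Summit pileup is plotted against local background, both in fragments on log scales, for the 21 records of the minor genes (circles), the 43 of the other fibrillar genes (triangles) and all full-length records (squares, darker for more records). The circles lie between backgrounds of 1.01 and 4.32, within the dense part of the list except for COL27A1 region 5 at 74 fragments, while the triangles reach a background of 44.

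Genes of the collagen pathway were counted in the same way. Of 21 genes for the processing and modification of procollagen, 11 (52.4%) had a full-length record in the body and 15 had one in the body or flanks, against the 33.7% and 52% given above for all protein-coding genes. These shares are not matched for length. The 21 genes ran from 5.81 kb (PCOLCE) to 288 kb (ADAMTS3). The body share over protein-coding genes was 22.8% under 40 kb, 40.7% at 40 to 100 kb and 58% at 100 to 300 kb. P4HA2, a subunit of prolyl hydroxylase, held 5 records with pileups of 17 to 32, and PLOD2, a lysyl hydroxylase, held 4 with pileups of 13 to 35. SERPINH1, the collagen chaperone HSP47, held 2 with pileups of 30 and 31. BMP1, the protease that removes the C-terminal propeptide, also held 2, with pileups of 29 and 34. ADAMTS2, the N-propeptidase of type I procollagen, had none. The chondrocyte factors SOX5, SOX6 and SOX9, which drive COL2A1 and COL11A2 in cartilage, held 1 body record each, with pileups of 14, 11 and 18. SOX5 (1033 kb) and SOX6 (773 kb) are among the genes above 300 kb, of which 71.8% held a record, and SOX9 (5.4 kb) is among those under 40 kb, of which 22.8% did.

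The genes most like the 3 with 5 records were chosen by an equal number of body records and the nearest percent of body covered, among 156 candidates. For COL5A1 they were ABCC1, HMGB1 and RFTN1, for COL11A1 ARNT2, LIPC and PIK3CB, and for COL27A1 BMPER, GTF2F2 and SHC4. The body pileups of these 9 genes ran from 12 to 39 fragments, so none reached the 74 of COL27A1 region 5.

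In the dZF list no record lay in the body or flanks of any of the 7 genes, of the other 4 fibrillar genes, or of the 24 pathway genes. A dZF record in body or flanks was found for 0.125% of protein-coding genes (25 of 20007). The lowest −log10 p-value in the dZF list was 7.62, which at its lowest background of 0.625 fragments needs a pileup of 8, and the smallest pileup listed was 9. The lowest background of the full-length list was 0.865, a ratio of 1.38 between the pools. When pileups and backgrounds of the full-length list were lowered by this ratio, with pileups rounded down, 19 of the 21 records stayed above 7.62, against 85.3% of all full-length records. The 2 that did not were COL11A1 region 4 (6.96) and COL11A2 region 1 (7.22). With the Poisson tail interpolated between whole pileups instead, 20 of 21 stayed above it, against 89.1% of all records. The highest record, COL27A1 region 5, came to 53.4 fragments after scaling, and 17 would have been needed at its scaled background to reach 7.62. The value 7.62 is the lowest that the dZF list holds and not a stated cutoff, and the full-length list holds records down to 2.16. Passing or missing 7.62 therefore does not show whether a record would have been listed. The dZF list holds only records that passed its filter, and other signal of dZF-ZNF469 was not analysed here.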

How the data were processed

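CUT&RUN for ZNF469 was performed on 6 libraries in 2 groups of 3. Per the submitters' processing notes the tools included bcl2fastq, Bowtie2 2.3.4.3, MACS2 2.2.5, R 4.2.1 and deepTools 3.5.1, and the build was hg38. Their settings and any control library were not given in the sources used here. The authors pooled each group and kept records passing an irreproducible discovery rate filter, so the deposited lists hold per record a score, a fold enrichment ratio over local background, a −log10 p-value and a summit offset. No depth per library was available.

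A whole-number pileup and a background were recovered by solving fold and −log10 p-value together. The pileup and background then returned the deposited −log10 p-value to within 6.9e-05. The procedure was tested on simulated data. Records overlapping a gene by at least 1 bp were counted with GENCODE version 44 (20007 protein-coding genes). Classes followed ChIPseeker order, with promoters of 3 kb. Wilson and exact Poisson limits are at 95%. Named genes were the members, the other fibrillar genes, neighbours of flank records, listed pathway genes and, for each of the 3 members that tied for the most body records, the 3 genes nearest to it in cover. Members and lists were chosen with earlier results of these data known, and no test was run. The window of COL27A1 region 6 and the record nearest to COL5A3 are not reported here. The alternatives varied the threshold, the flanks, the overlap rule, the annotation, the motif window and the depth scaling. For the scaling, the rounded form was chosen over the interpolated form after the results of both had been seen, to follow an earlier processing of these data. Python 3.11.15, numpy 2.4.6, pandas 2.3.3, scipy 1.17.1, statsmodels 0.14.6 and pysam 0.24.0 were used.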

Additional observations from a re-analysis of the deposited data

How the results depend on the processing

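Over 15 results, 73 alternatives were run, of which 57 stayed within 1.5 times the reported count or within its counting interval and 16 moved. The results are counts, shares and medians without a sign, so that 0 changed direction was fixed in advance. Stricter thresholds lowered the counts and the covered share, by construction, as they only remove records. The 21 records became 11 in the upper 50% by fold, 6 in the upper 25% by fold and 5 in the upper 25% by −log10 p-value, and the 16 body records became 7, 3 and 4. The covered share of 0.673% became 0.342%, 0.108% and 0.158%, and the 5 genes with a record became 3 in the upper 25% by −log10 p-value. The promoter share fell to 14.3% with a window of 1 kb, and the 3' UTR and exon shares were 0% at the summit. The distal share was 0% in the gene body alone, by construction. The AP-1 share was 42.9% at 100 bp and 52.4% over whole records. The interpolated scaling, added after the data were seen, kept 20 records where the rounded form kept 19. Flanks of 50 kb gave 25 records and 6 genes, adding COL24A1.

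No paired analysis was possible because the lists give no value for single libraries, and leaving out a library was not run for that reason. Depth limits the pileups to the Poisson limits given with them.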
